A study of Mus musculus with 6 samples.

Results

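The smooth muscle contractile genes are 35 genes that encode the contractile apparatus of smooth muscle, the cytoskeleton that anchors it and the transcriptional coactivator Myocd. They were chosen by name with earlier results of these data known, and all 35 were found among the 26586 genes of the count table. Ribosomal RNA-depleted total RNA had been sequenced from 6 libraries, 3 labelled Axin2+ and 3 labelled Axin2-. All came from the uteri of mice of the strain Axin2rtTA; tetOH2BJGFP, in which the Axin2 promoter drives rtTA and, with doxycycline, rtTA drives a nuclear H2BJGFP reporter. Ovaries were removed at 4 weeks of age, doxycycline followed after 2 weeks of recovery, and uteri were taken 4 days after that, at an age given as 6 weeks. Libraries labelled Axin2+ hold the GFP+ cells and those labelled Axin2- the GFP- cells of the endometrial epithelial isolate, so the ovariectomy, the doxycycline and both transgenes are shared by both fractions. The labels number the libraries by mouse (1 to 3) and also speak of pooling, so that the spread between libraries may be less than that between separate animals. Wherever 3 values are given for a fraction, they are those of mice 1, 2 and 3 in that order, and "Axin2+ mouse 2" stands for the Axin2+ library of mouse 2.

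Smooth muscle contracts when myosin II heads pull on actin filaments. Calcium entering the cell activates myosin light chain kinase, which phosphorylates the myosin light chain, and myosin phosphatase reverses this. Thin filaments are anchored in dense bodies and in adhesion plaques at the membrane, and desmin filaments link the dense bodies. Many of these genes are activated by serum response factor (SRF), which binds a short DNA element called the CArG box and recruits myocardin. In the uterus the myometrium, which lies outside the endometrium, is smooth muscle, and vessel walls hold smooth muscle as well.

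The libraries were deep and their totals similar, at 49714402 to 59597315 counts, of which 14.7% to 23.8% fell on ribosomal RNA genes. Levels are given as CPM, counts relative to library size after scaling by TMM (trimmed mean of M values) factors. Axin2, whose promoter drives the reporter, had 165, 243 and 299 CPM in the libraries labelled Axin2+, against 369, 357 and 356 CPM in those labelled Axin2-. This is against the direction the labels imply, with a log2 fold change of -0.61 ± 0.21 (SE) and an edgeR adjusted p = 0.0710, and a two-sided exact permutation test of log2 CPM returned p = 0.1, the smallest that 3 against 3 allows. Every direction below is therefore that of the libraries as labelled. Epithelial markers, which define the labelled cell type, summed to 3162 to 4183 CPM in the libraries labelled Axin2+, against 256 to 366 CPM in those labelled Axin2-, so they were scarce in the Axin2- fraction of an isolate described as epithelial.

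Transcripts of smooth muscle were far lower in the libraries labelled Axin2+. Of the 34 members with enough counts to be tested, 32 were lower and 1, Actn1, was higher at an adjusted p below 0.05 (edgeR quasi-likelihood F test, Benjamini-Hochberg over all 16896 genes tested). Cav1 did not pass and Ckm had too few counts. Across all genes tested, 12.8% were called lower and 14.5% higher, 27.3% in all. When libraries were scaled by their total counts alone the split over all genes was 1573 lower and 3255 higher, against 2171 lower and 2447 higher, and the median over all genes shifted by 0.17 on the log2 scale. In that scaling 30 members stayed lower and 1 higher. The median log2 fold change of the tested members was -2.56, beside -0.01 over all genes tested. The 3 libraries of each fraction did not overlap for the 32 members called lower, where 23.2% of all genes lay apart in that direction, nor for the member called higher, where 23.9% of all genes did. A fall of over 8-fold was seen for 14 members, against 1.40% of all genes, and a fall of over 4-fold for 21, against 3.12% of all genes. In bulk libraries fewer cells of a type and less RNA per cell cannot be told apart.

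**Figure D1:**
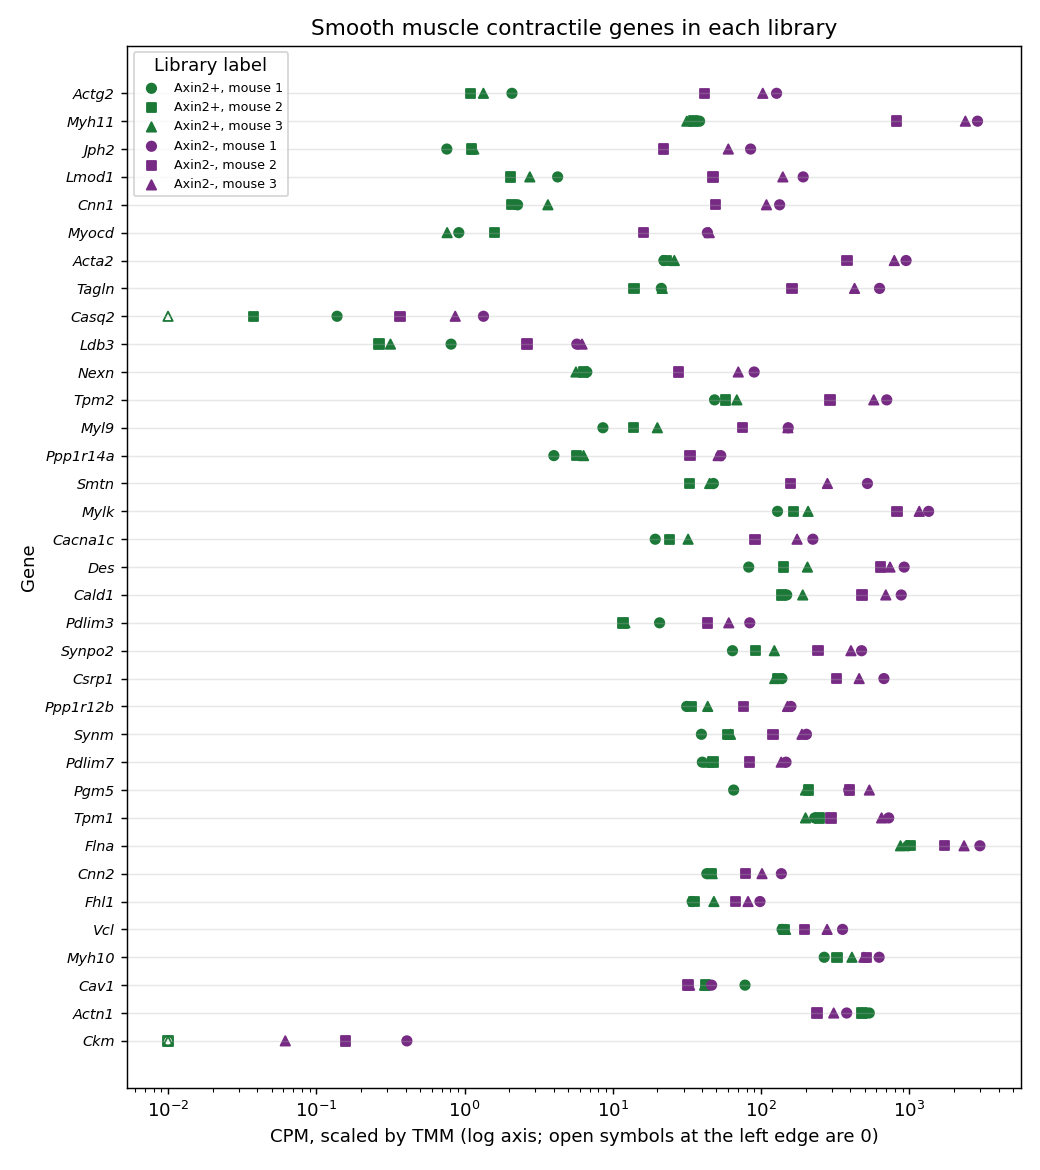
Level of each of the 35 smooth muscle contractile genes in each library, as CPM after TMM scaling on a log axis, with genes down the page. Green symbols are libraries labelled Axin2+, purple symbols those labelled Axin2-, and the shape gives the mouse; open symbols at the left edge are values of 0. Myh11 lies at 31.6 to 38.5 CPM in the green symbols and at 822 to 2882 CPM in the purple ones, while Cav1 overlaps.

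The 250 bases before each annotated start site (RefSeq, GRCm38.p6) were searched for the CArG box, the element bound by SRF, whose pattern reads the same on both strands. Many of the members are known as genes that SRF activates. A share of boxes above that of all genes could therefore follow from the choice of the list alone, and a part of SRF in the fall was not tested. The table held 39 such windows for 30 of the 35 members. No window was available for Actg2, Myh11, Myocd, Nexn and Tagln, so genes with falls as large as -5.90 and -5.86 on the log2 scale were not searched. An exact CArG box was found in 6 of the 39 windows (15.4%), those of Cnn2, Fhl1, Ldb3, Myl9 and Vcl, against 482 of 32851 windows of all genes (1.47%). Allowing 1 of its inner letters to be C or G gave 14 of 39 windows (35.9%) of 11 members, adding Acta2, Cacna1c, Ckm, Jph2, Pdlim3 and Synm, against 2823 of 32851 (8.59%). Some members have several windows, and the 2 windows of Ldb3 share their site, as do those of Jph2. The windows of Acta2 (chr19:34255374-34255623, minus strand), Myl9 (chr2:156775214-156775463, plus strand), Cnn2 (chr10:79988350-79988599, plus strand) and Vcl (chr14:20929148-20929397, plus strand) are shown 5′ to 3′ with the matches in capitals, as an actin and a myosin light chain that fell strongly beside a pair of widely expressed members that fell less.
Acta2: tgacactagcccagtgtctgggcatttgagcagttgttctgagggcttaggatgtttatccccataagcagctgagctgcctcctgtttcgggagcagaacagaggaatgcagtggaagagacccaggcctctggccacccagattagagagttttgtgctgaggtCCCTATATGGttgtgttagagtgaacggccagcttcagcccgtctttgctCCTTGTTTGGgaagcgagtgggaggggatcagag
Myl9: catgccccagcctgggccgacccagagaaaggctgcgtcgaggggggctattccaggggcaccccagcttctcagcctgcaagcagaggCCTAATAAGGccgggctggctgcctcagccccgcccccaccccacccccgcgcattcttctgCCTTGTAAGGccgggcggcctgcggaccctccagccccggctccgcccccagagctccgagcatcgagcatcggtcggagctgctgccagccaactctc
Cnn2: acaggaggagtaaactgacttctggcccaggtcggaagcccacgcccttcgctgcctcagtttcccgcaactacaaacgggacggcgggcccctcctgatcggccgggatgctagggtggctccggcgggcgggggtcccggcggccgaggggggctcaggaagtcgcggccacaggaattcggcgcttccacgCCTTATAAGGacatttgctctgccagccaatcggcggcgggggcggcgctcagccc
Vcl: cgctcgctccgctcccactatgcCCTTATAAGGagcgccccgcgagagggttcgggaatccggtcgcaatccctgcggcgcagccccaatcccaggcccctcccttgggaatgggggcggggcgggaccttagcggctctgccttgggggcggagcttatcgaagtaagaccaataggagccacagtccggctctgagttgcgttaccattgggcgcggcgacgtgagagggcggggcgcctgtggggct
The Acta2 window holds 2 matches, which begin 84 and 34 bases before the start site, each with a changed inner letter. Myl9 has an exact box from 161 bases and a changed one from 99 bases before the start, Cnn2 an exact box from 56 bases and Vcl an exact box from 227 bases before it. The exact box is thus found beside falls of unequal size, from -3.38 for Ldb3 and -3.16 for Myl9 to -1.22 for Cnn2 and -0.96 for Vcl on the log2 scale. A match describes these letters and does not show that SRF binds there.

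The thin filament genes all fell: 10 of 10 passed, with a median log2 fold change of -3.80. Acta2, the smooth muscle alpha-actin (ENSMUSG00000035783, chromosome 19, 34241090 to 34255590, minus strand of mm10), had 22.1, 23.1 and 26.0 CPM in the libraries labelled Axin2+, against 950.2, 381 and 791 CPM in those labelled Axin2-. The 2 ranges lie far apart, and the difference was -4.90 ± 0.37 on the log2 scale (SE, edgeR adjusted p = 0.000352). Actg2, the smooth muscle gamma-actin (ENSMUSG00000059430, chromosome 6, 83512905 to 83536265, minus strand), had 2.09, 1.10 and 1.34 CPM in the libraries labelled Axin2+, against 127, 41.7 and 103 CPM in those labelled Axin2-. It showed the largest fitted fall among the tested members, -5.90 ± 0.51 (edgeR adjusted p = 0.000541). The actins are similar in their coding sequence. Any reads shared between Acta2 and Actg2, or with Actb and Actg1, could have been split between them or dropped, and their values are uncertain to that extent.

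Of the proteins that bind the actin filament, Tagln (transgelin) had 21.2, 13.9 and 21.6 CPM in the libraries labelled Axin2+, against 629, 161 and 427 CPM in those labelled Axin2- (log2 fold change -4.42 ± 0.52, edgeR adjusted p = 0.00146). Tagln overlaps the coding gene Pcsk7 on the opposite strand, and Pcsk7 itself had 27.4 ± 4.10 CPM in the libraries labelled Axin2+, against 27.1 ± 6.56 CPM in those labelled Axin2- (SD, n = 3 each). Cnn1, the calponin of differentiated smooth muscle, had 2.28, 2.08 and 3.65 CPM in the libraries labelled Axin2+, against 133, 49.1 and 109 CPM in those labelled Axin2- (-5.18 ± 0.45, edgeR adjusted p = 0.000546). Lmod1 encodes leiomodin, which nucleates actin filaments in smooth muscle. It stood at 4.24, 2.04 and 2.75 CPM in the libraries labelled Axin2+, against 192, 47.3 and 140.2 CPM in those labelled Axin2- (-5.39 ± 0.59, edgeR adjusted p = 0.00117). In each of these genes the highest library labelled Axin2+ stayed below the lowest labelled Axin2-, and mouse 2 was the lowest of the libraries labelled Axin2-.

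Smoothelin, caldesmon and the tropomyosins fell less. Smtn, a marker of contractile smooth muscle, had 47.7, 32.9 and 45.0 CPM in the libraries labelled Axin2+, against 521, 158 and 280.1 CPM in those labelled Axin2- (-2.93 ± 0.43, edgeR adjusted p = 0.00354). Cald1, which encodes caldesmon, an inhibitor of the actin-activated myosin ATPase, had 149, 137 and 191 CPM in the libraries labelled Axin2+, against 881, 479 and 693 CPM in those labelled Axin2- (-2.11 ± 0.25, edgeR adjusted p = 0.00152). Tpm2, the beta-tropomyosin, had 48.5, 57.5 and 68.6 CPM in the libraries labelled Axin2+, against 704, 291 and 575 CPM in those labelled Axin2- (-3.17 ± 0.34, edgeR adjusted p = 0.00108). Tpm1, the alpha-tropomyosin, is expressed in many cell types as splice forms. It had 230.0, 247 and 199 CPM in the libraries labelled Axin2+, against 725, 296 and 649.6 CPM in those labelled Axin2-, a difference of -1.31 ± 0.32 (edgeR adjusted p = 0.0239). The gap between the fractions was narrow for Tpm1, since 247 and 296 CPM are neighbours; with mouse as a block its adjusted p was 0.0559, and without Axin2+ mouse 2 or 3, or Axin2- mouse 1 or 3, it was 0.0667, 0.0628, 0.0726 and 0.0816. Cnn2, the calponin found widely outside muscle, had 43.0, 46.4 and 46.8 CPM in the libraries labelled Axin2+, against 137, 78.7 and 101 CPM in those labelled Axin2- (-1.22 ± 0.20, edgeR adjusted p = 0.00516).

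All 6 genes of myosin and its control fell, with a median of -2.92. Myh11, the smooth muscle myosin heavy chain (ENSMUSG00000018830, chromosome 16, 14194535 to 14291372, minus strand), had 38.5, 35.1 and 31.6 CPM in the libraries labelled Axin2+, against 2882, 822 and 2386 CPM in those labelled Axin2- (-5.86 ± 0.51, edgeR adjusted p = 0.000550). Within mice 1, 2 and 3 the Axin2+ level was 1.33%, 4.27% and 1.32% of the Axin2- level. Mylk, the myosin light chain kinase, had 129, 165 and 207 CPM in the libraries labelled Axin2+, against 1349, 828 and 1166 CPM in those labelled Axin2- (-2.74 ± 0.26, edgeR adjusted p = 0.000635). Myl9, the regulatory light chain, had 8.57, 13.8 and 20.0 CPM in the libraries labelled Axin2+, against 152, 74.6 and 152 CPM in those labelled Axin2- (-3.16 ± 0.40, edgeR adjusted p = 0.00194). For all 3 genes the fractions lay apart in every pairing of libraries.

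Ppp1r14a, which encodes CPI-17, an inhibitor of myosin phosphatase, had 4.00, 5.68 and 6.35 CPM in the libraries labelled Axin2+, against 53.4, 33.2 and 51.3 CPM in those labelled Axin2- (-3.10 ± 0.27, edgeR adjusted p = 0.000479). Ppp1r12b, a targeting subunit of that phosphatase, had 31.5, 34.1 and 43.6 CPM in the libraries labelled Axin2+, against 159, 76.4 and 151 CPM in those labelled Axin2- (-1.82 ± 0.29, edgeR adjusted p = 0.00481). So the transcript of the inhibitor and that of the targeting subunit were both lower. Myh10, a non-muscle myosin II heavy chain, changed less than Myh11. It had 267, 325 and 409.7 CPM in the libraries labelled Axin2+, against 625, 515 and 493 CPM in those labelled Axin2- (-0.71 ± 0.19, edgeR adjusted p = 0.0330). The call for Myh10 was lost with mouse as a block (adjusted p = 0.0682), with scaling by total counts (0.0984), without Axin2+ mouse 1 or 2 (0.0719 and 0.115) and without Axin2- mouse 1, 2 or 3 (0.113, 0.0529 and 0.0618).

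Intermediate filament and dense body genes, 9 of 9, fell with a median of -2.01. Des, which encodes desmin, had 82.5, 141 and 205 CPM in the libraries labelled Axin2+, against 922, 640.1 and 740.3 CPM in those labelled Axin2- (-2.42 ± 0.34, edgeR adjusted p = 0.00294). Synm, which encodes synemin, a partner of desmin, had 39.6, 59.7 and 62.2 CPM in the libraries labelled Axin2+, against 202, 120.1 and 189 CPM in those labelled Axin2- (-1.66 ± 0.25, edgeR adjusted p = 0.00389). Synm overlaps the coding gene Ttc23 on the opposite strand, which had 14.6 ± 3.45 CPM in the libraries labelled Axin2+, against 22.7 ± 2.92 CPM in those labelled Axin2- (SD, n = 3 each). For both desmin and synemin, mouse 1 was the lowest of the libraries labelled Axin2+ and the highest of those labelled Axin2-.

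Synpo2 (synaptopodin 2, an actin-bundling protein) had 64.1, 92.1 and 123 CPM in the libraries labelled Axin2+, against 476, 241 and 404 CPM in those labelled Axin2- (-2.01 ± 0.32, edgeR adjusted p = 0.00496). Csrp1, a LIM-domain protein of smooth muscle, had 138, 130.2 and 124 CPM in the libraries labelled Axin2+, against 674, 323 and 459 CPM in those labelled Axin2- (-1.89 ± 0.26, edgeR adjusted p = 0.00266). Nexn, which encodes the actin-binding protein nexilin, had 6.68, 6.32 and 5.64 CPM in the libraries labelled Axin2+, against 89.8, 27.8 and 70.2 CPM in those labelled Axin2- (-3.33 ± 0.42, edgeR adjusted p = 0.00193). In these 3 genes the fractions did not overlap, and the library labelled Axin2- of mouse 2 came closest to the libraries labelled Axin2+.

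The PDZ-LIM scaffold proteins bind alpha-actinin. Ldb3, best known from the Z-disc of striated muscle, was low throughout, at 0.811, 0.264 and 0.316 CPM in the libraries labelled Axin2+, against 5.72, 2.64 and 6.20 CPM in those labelled Axin2- (-3.38 ± 0.60, edgeR adjusted p = 0.00713); without Axin2+ mouse 1 it was -4.05. Pdlim3 had 20.7, 11.7 and 12.1 CPM in the libraries labelled Axin2+, against 83.9, 43.3 and 60.5 CPM in those labelled Axin2- (-2.08 ± 0.32, edgeR adjusted p = 0.00416). Pdlim7 had 40.1, 47.4 and 44.1 CPM in the libraries labelled Axin2+, against 147, 83.7 and 137 CPM in those labelled Axin2- (-1.48 ± 0.22, edgeR adjusted p = 0.00328). Fhl1, a LIM-only protein of muscle, had 34.3, 35.3 and 48.0 CPM in the libraries labelled Axin2+, against 98.3, 67.0 and 81.7 CPM in those labelled Axin2- (-1.07 ± 0.19, edgeR adjusted p = 0.00772), the smallest fall of this group.

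The genes of the cell cortex, adhesion plaque and caveola were the mixed group: of 5 tested, 3 fell and 1 rose, with a median of -0.96. Actn1 encodes a non-muscle alpha-actinin that cross-links actin at adhesions. It had 536, 480.5 and 480.0 CPM in the libraries labelled Axin2+, against 378, 239 and 309 CPM in those labelled Axin2- (0.69 ± 0.19, edgeR adjusted p = 0.0308). Its fractions did not overlap, and the adjusted p for Actn1 was 0.0668, 0.0832 and 0.0557 without Axin2+ mouse 1, 2 or 3, and 0.0831 without Axin2- mouse 3. Cav1, the scaffold protein of caveolae, had 77.9, 42.2 and 41.5 CPM in the libraries labelled Axin2+, against 46.4, 32.1 and 32.9 CPM in those labelled Axin2-. These overlap, and the difference of 0.54 ± 0.28 missed the threshold (edgeR adjusted p = 0.201) and did so under all 16 alternatives.

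Flna, which encodes filamin A, an actin cross-linker present in most cells, had 978, 1021 and 872 CPM in the libraries labelled Axin2+, against 2991, 1719.9 and 2338 CPM in those labelled Axin2- (-1.30 ± 0.23, edgeR adjusted p = 0.00706). Vcl, which encodes vinculin of adhesion plaques, had 139, 143 and 146 CPM in the libraries labelled Axin2+, against 354, 196 and 279 CPM in those labelled Axin2- (-0.96 ± 0.21, edgeR adjusted p = 0.0155). The adjusted p for Vcl was 0.0594 without Axin2+ mouse 2 and 0.0535 without Axin2- mouse 3. Vcl overlaps the coding gene Ap3m1 on the opposite strand, which had 24.8 ± 0.299 CPM in the libraries labelled Axin2+, against 19.2 ± 2.64 CPM in those labelled Axin2- (SD, n = 3 each). Pgm5, which encodes aciculin, a plaque protein related to phosphoglucomutase, had 65.3, 209.6 and 199 CPM in the libraries labelled Axin2+, against 389.9, 395 and 537 CPM in those labelled Axin2- (-1.48 ± 0.42, edgeR adjusted p = 0.0378). Mouse 1 stood well below the other Axin2+ libraries for Pgm5. Its adjusted p was 0.0605 and 0.0506 without Axin2+ mouse 2 or 3, 0.0803, 0.0703 and 0.114 without Axin2- mouse 1, 2 or 3, 0.0529 with scaling by total counts and 0.0568 with no filter on low counts.

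The genes of calcium handling and transcription fell as far as the filament genes. Myocd, which encodes myocardin (ENSMUSG00000020542, chromosome 11, 65176561 to 65269989, minus strand), had 0.914, 1.59 and 0.763 CPM in the libraries labelled Axin2+, against 43.4, 16.1 and 44.7 CPM in those labelled Axin2- (-5.00 ± 0.51, edgeR adjusted p = 0.000897). Jph2, which encodes junctophilin 2, a protein that holds the sarcoplasmic reticulum near the cell membrane, had 0.759, 1.11 and 1.15 CPM in the libraries labelled Axin2+, against 85.0, 22.0 and 60.1 CPM in those labelled Axin2- (-5.79 ± 0.56, edgeR adjusted p = 0.000731). Cacna1c, the pore subunit of the L-type calcium channel, had 19.3, 24.2 and 32.2 CPM in the libraries labelled Axin2+, against 223, 90.9 and 175 CPM in those labelled Axin2- (-2.69 ± 0.36, edgeR adjusted p = 0.00235). No library labelled Axin2+ reached the lowest labelled Axin2- for any of the 3.

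The remaining pair was close to the limit of detection. Casq2, a calcium-binding protein of the sarcoplasmic reticulum, had 8, 2 and 0 counts in the libraries labelled Axin2+, against 69, 21 and 42 counts in those labelled Axin2- (-3.80 ± 1.15, edgeR adjusted p = 0.0461). The call for Casq2 was lost with mouse as a block (adjusted p = 0.0608), with no filter on low counts (0.0550), without Axin2+ mouse 2 or 3 (0.154 and 0.0724) and without Axin2- mouse 1, 2 or 3 (0.142, 0.0585 and 0.106); without Axin2+ mouse 1 the log2 fold change was -5.34. Ckm, the muscle creatine kinase, had 0 counts in each library labelled Axin2+, against 21, 9 and 3 counts in those labelled Axin2-. With a floor of 3 counts for each library labelled Axin2+, the mean level in those labelled Axin2- was 3.82 times that floor. Axin2- mouse 3, at 3 counts, stood near the floor itself, so this is no bound for each library. Ckm was not tested in the main fit. DESeq2 called 33 members lower, Ckm among them, while edgeR with no filter on low counts called 30 lower, without Ckm.

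**Figure D2:**
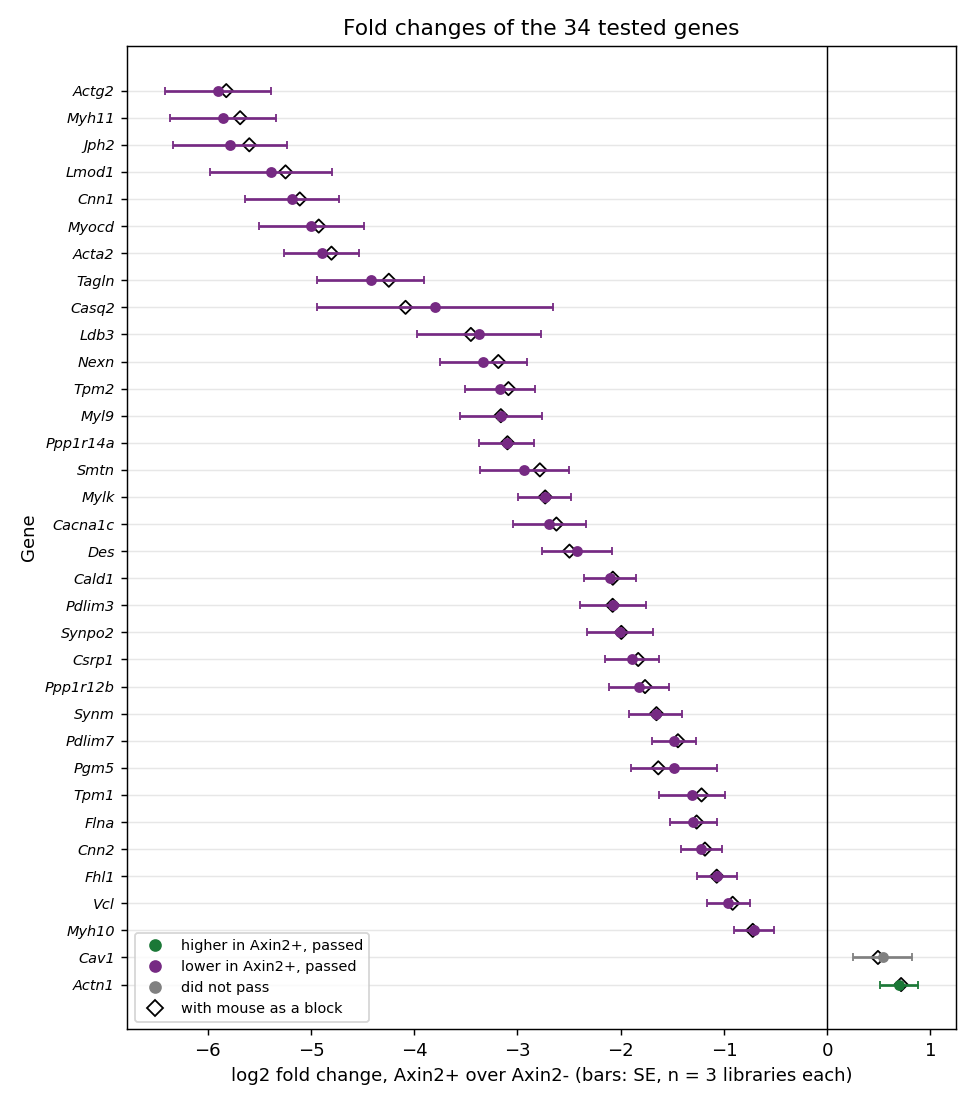
Log2 fold change of the 34 tested smooth muscle contractile genes, libraries labelled Axin2+ over those labelled Axin2-, with error bars of 1 SE from the edgeR fit; purple points passed as lower, the green point passed as higher, the grey point did not pass, and open diamonds are the values with mouse as a block. The values run from -5.90 for Actg2 to 0.69 for Actn1, and only Actn1 and Cav1 lie above 0.

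Levels of different genes were set side by side per kilobase of annotated exon. In the libraries labelled Axin2+ the highest members were Flna at 102 ± 8.18, Actn1 at 90.2 ± 5.86 and Csrp1 at 66.8 ± 3.73 CPM per kb (SD, n = 3). In the libraries labelled Axin2- Acta2 led at 322 ± 134, followed by Myh11 at 267 ± 141, Flna at 249.9 ± 67.6 and Csrp1 at 248 ± 90.4 CPM per kb (SD, n = 3), an order whose steps are smaller than the spread between mice. Acta2 itself stood at 10.8 ± 0.920 and Myh11 at 4.61 ± 0.453 CPM per kb in the libraries labelled Axin2+. All 35 members together took 0.345%, 0.378% and 0.402% of the counts in the libraries labelled Axin2+, against 1.70%, 0.825% and 1.27% in those labelled Axin2-. Within those member counts, Flna held 29.7%, 28.4% and 23.4% in the libraries labelled Axin2+, against 17.2%, 20.0% and 16.5% in those labelled Axin2-, while Myh11 held 1.17%, 0.978% and 0.848% in the libraries labelled Axin2+, against 16.5%, 9.57% and 16.8% in those labelled Axin2-. The share of Flna was thus higher, and that of Myh11 lower, in every library labelled Axin2+ than in any labelled Axin2-.

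The related pairs and families were set side by side per kilobase. The pairs were listed beforehand with earlier results known, while the family groupings were made after the values had been seen, and neither carries a test. The level of Myh10 was 5.04, 6.73 and 9.43 times that of Myh11 in the libraries labelled Axin2+, against 0.158, 0.455 and 0.150 times in those labelled Axin2-. Cnn2 was 21.0, 24.8 and 14.3 times Cnn1 in the libraries labelled Axin2+, against 1.14, 1.78 and 1.04 times in those labelled Axin2-. Tpm1 was 2.12, 1.93 and 1.304 times Tpm2 in the libraries labelled Axin2+, against 0.462, 0.457 and 0.506 times in those labelled Axin2-. In these 3 pairs the widely expressed partner was ahead in every library labelled Axin2+, and the ratios of the fractions did not overlap. Actg2 was 0.133, 0.0669 and 0.0727 times Acta2 in the libraries labelled Axin2+, against 0.189, 0.154 and 0.183 times in those labelled Axin2-, so Acta2 led in both. The ratio of Pdlim7 to Pdlim3 overlapped, at 2.06 to 4.29 in the libraries labelled Axin2+ and 1.86 to 2.40 in those labelled Axin2-.

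Among 4 actins, Acta2 made up 0.671% to 1.41% of the summed level per kilobase in the libraries labelled Axin2+ and 13.9% to 26.9% in those labelled Axin2-; cytoplasmic Actb made up 75.6% to 78.2% in the libraries labelled Axin2+ and 56.4% to 68.2% in those labelled Axin2-. Among the 4 myosin II heavy chains Myh11 held at most 2.41% in the libraries labelled Axin2+ and 42.6% to 67.5% in those labelled Axin2-. Myh9, a non-muscle form, held 63.5% to 72.0% in the libraries labelled Axin2+ and 21.4% to 36.8% in those labelled Axin2-. Myh14, a further non-muscle heavy chain, held 12.3% to 14.0% in the libraries labelled Axin2+ and 0.421% to 1.22% in those labelled Axin2-. Tpm2 held 7.44% to 13.4% of the tropomyosins in the libraries labelled Axin2+ and 35.9% to 46.0% in those labelled Axin2-. Acta2, Myh11 and Tpm2 each took a smaller share in every library labelled Axin2+ than in any labelled Axin2-. Not all members did so. The share of Tpm1 overlapped, at 15.8% to 19.8% in the libraries labelled Axin2+ and 16.4% to 23.3% in those labelled Axin2-. That of Myh10 did too, at 12.1% to 21.8% and 10.1% to 19.4%. The shares of Actn1 among alpha-actinins and Ppp1r12b among myosin phosphatase targeting subunits also overlapped.

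**Figure D3:**
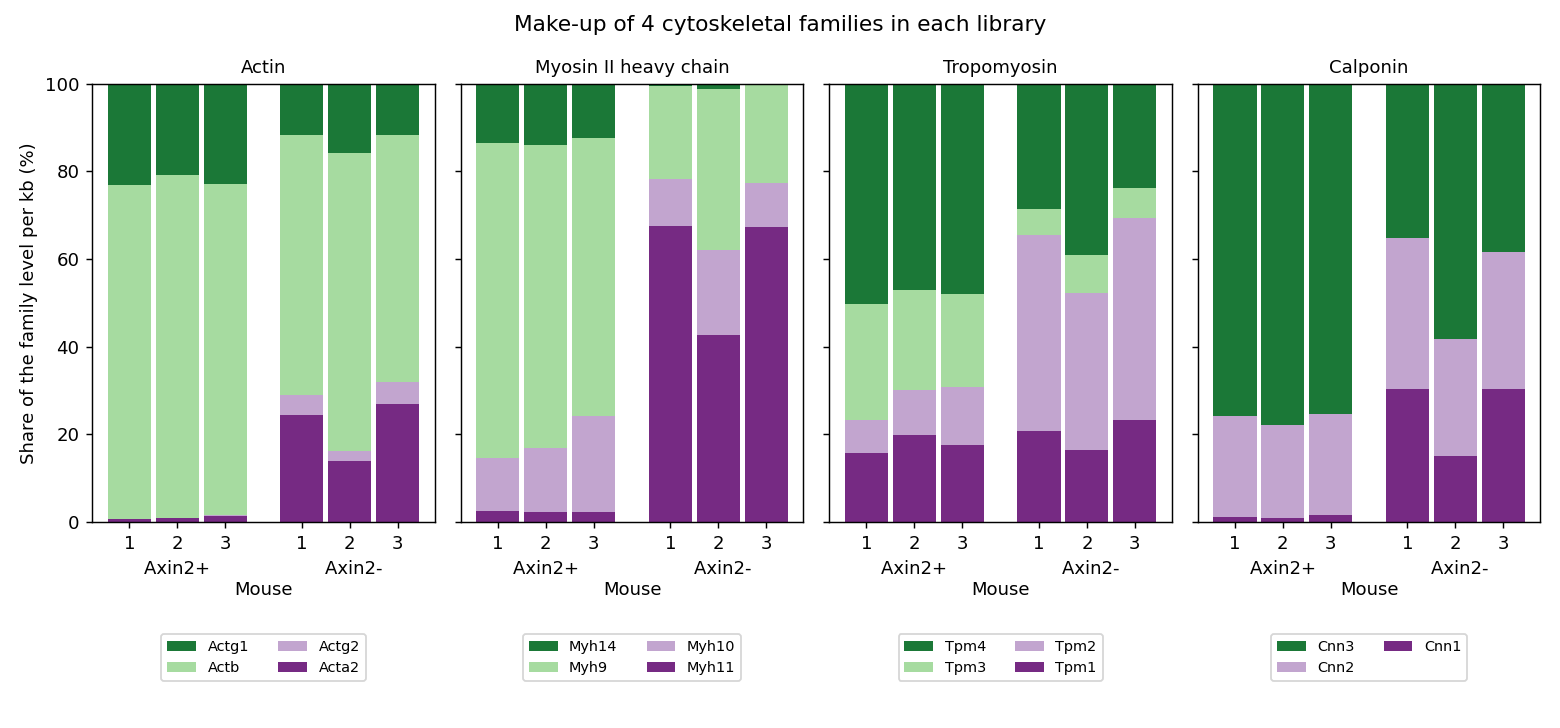
Share of each gene in the summed level per kb of its family (percent, stacked to 100) in each library, for actins, myosin II heavy chains, tropomyosins and calponins; the 3 bars on the left of each panel are mice 1 to 3 labelled Axin2+, those on the right mice 1 to 3 labelled Axin2-. Myh11 makes up at most 2.41% of the myosin II heavy chains in the libraries labelled Axin2+ and 42.6% to 67.5% in those labelled Axin2-.

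The libraries labelled Axin2- differed among themselves in a shared way. Of the 34 tested members, 32 (94.1%) had their lowest Axin2- value in mouse 2, against 36.9% of all genes tested, and 31 (91.2%) had their highest in mouse 1, against 30.6%. The level in mouse 2 was 52.1% of the mean of mice 1 and 3 at the median member, from 28.4% for Lmod1 to 92.2% for Myh10, and under 50% for 17 members. Jph2 stood at 30.3%, Tagln at 30.5% and Myh11 at 31.2%, while Actg2, the gene with the largest fall, stood at 36.3%, Acta2 at 43.7%, Des at 77.0% and Pgm5 at 85.3%. The stromal fibroblast markers, summed over 15 genes, moved with it, at 23505, 10831 and 19058 CPM in the libraries labelled Axin2-. Among other lists, the sums of pericyte (509, 358 and 658 CPM) and macrophage markers (236, 53.3 and 324 CPM) were also lowest in mouse 2. So were those of the contraction control, adhesion, striated muscle, basal, and Schwann and neural lists given below. Those of epithelial (256, 366 and 356 CPM) and endothelial markers (196, 221 and 240 CPM) were not. Nor were those of the SRF regulators, cytoskeletal paralogs and Cajal-like markers. The low sums in mouse 2 were thus not limited to a few cell types. The part of these cell types and lists in the result was not tested. Without Axin2- mouse 2, 29 members were lower and 1 higher. The libraries labelled Axin2+ showed no such common order: mouse 1 was the lowest for 17 of 34 members, against 41.0% of all genes.

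**Figure D4:**
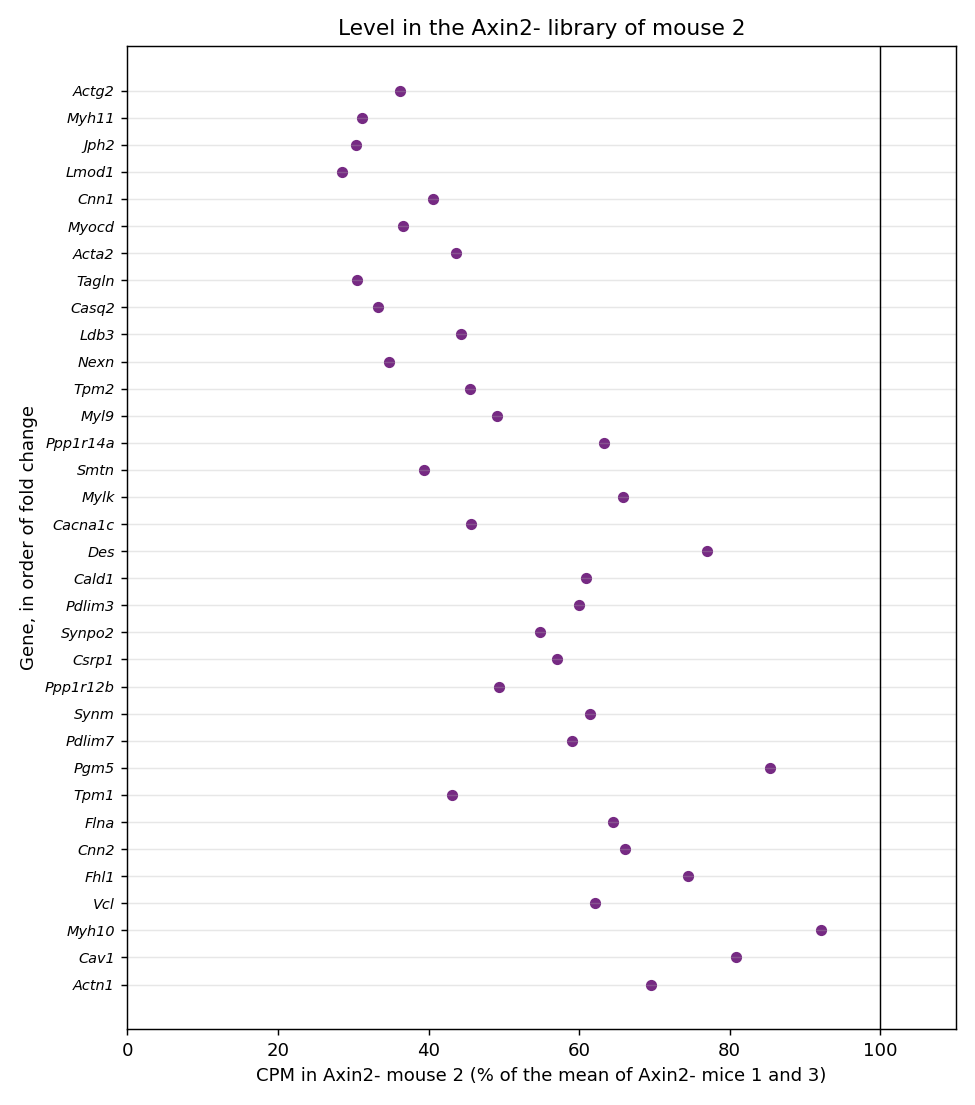
CPM in the library labelled Axin2- of mouse 2 as a percentage of the mean of the libraries labelled Axin2- of mice 1 and 3, for each tested member in order of its fold change between the fractions. All points lie left of the line at 100%, from 28.4% for Lmod1 to 92.2% for Myh10.

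Of 16 tested SRF and myocardin regulators, 6 were lower (37.5%, against 12.8% of all genes) and 1 higher, with a median of -0.45. Srf itself had 117, 69.6 and 71.7 CPM in the libraries labelled Axin2+, against 140.1, 102 and 115 CPM in those labelled Axin2- (-0.47 ± 0.23, edgeR adjusted p = 0.171; 0.0483 with mouse as a block), a gene named after its values were seen. Mkl2, a myocardin-related coactivator of SRF, had 191, 218 and 192 CPM in the libraries labelled Axin2+, against 92.7, 96.6 and 89.0 CPM in those labelled Axin2- (1.11 ± 0.11, edgeR adjusted p = 0.000761), so it rose while Myocd fell. The mesenchymal transcription factors Tbx18, Tcf21 and Prrx1 fell, with differences of -2.62 ± 0.33, -2.03 ± 0.29 and -1.79 ± 0.33. The number lower was 3 without Axin2+ mouse 2 and 3 without Axin2- mouse 1 or mouse 3.

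Of 29 contraction control and calcium handling genes, 15 were lower (51.7%, against 12.8% of all genes) and 0 higher, with a median of -0.87; DESeq2 called 1 higher. Kcnmb1, the beta subunit of the large-conductance potassium channel of smooth muscle, had 0.276, 0.302 and 0.596 CPM in the libraries labelled Axin2+, against 24.4, 8.37 and 18.7 CPM in those labelled Axin2- (-5.45 ± 0.54, edgeR adjusted p = 0.000764). Mrvi1, a target of cGMP-dependent kinase that restrains calcium release, fell by 2.24 ± 0.27, Cacna2d1, a calcium channel subunit, by 1.72 ± 0.22, and Ppp1r12a, a myosin phosphatase targeting subunit, by 1.13 ± 0.16 on the log2 scale. The number lower was 9 without Axin2- mouse 3.

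Of 28 adhesion and dystrophin complex genes, 9 were lower (32.1%, against 12.8% of all genes) and 3 higher (10.7%, against 14.5% of all genes), with a median of -0.58. Sgce, which encodes epsilon-sarcoglycan, fell to 24.5 ± 3.28 CPM in the libraries labelled Axin2+, against 50.6 ± 2.83 CPM in those labelled Axin2- (SD, n = 3 each; edgeR adjusted p = 0.00241). The 3 that rose were Sorbs2, an adaptor of actin-linked adhesions (2.03 ± 0.24, SE), Cav2, the partner of Cav1 in caveolae (1.39 ± 0.19), and Dtna, the dystrobrevin alpha gene (23.6 ± 2.47 CPM in the libraries labelled Axin2+, against 9.61 ± 1.95 CPM in those labelled Axin2-; SD, n = 3 each). Cav2 thus rose, while Cav1 did not pass.

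Of 29 tested cytoskeletal paralogs, most of them widely expressed, 9 were higher (31.0%, against 14.5% of all genes), 4 were lower (13.8%, against 12.8% of all genes) and 16 did not pass, with a median of 0.22. Myh14 had 207, 214 and 161 CPM in the libraries labelled Axin2+, against 18.9, 22.5 and 14.3 CPM in those labelled Axin2- (3.38 ± 0.21, edgeR adjusted p = 0.000239). Pdlim1 rose by 2.38 ± 0.16, Smtnl2, a relative of smoothelin, by 1.82 ± 0.18 and Pdlim5 by 1.51 ± 0.15 on the log2 scale. The 4 that fell, named after their values were seen, were Svil, Flnc, Pgm1 and Myl6, which encode supervillin, filamin C, a phosphoglucomutase and a myosin light chain. With scaling by total counts 2 of the paralogs were lower, as Pgm1 and Myl6 were lost, and likewise 2 without Axin2+ mouse 2 or 3 or Axin2- mouse 1 or 3. Actb did not pass (-0.01 ± 0.26, edgeR adjusted p = 0.987), nor did Myh9 (0.37 ± 0.18, edgeR adjusted p = 0.178), and both were named after their values were seen.

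Markers of other cell types were measured in the same libraries, where 12.8% of all genes tested were called lower and 14.5% higher. Of 16 tested striated muscle markers, 6 were lower and 1, Mylk3, higher (edgeR adjusted p = 0.0172, up to 0.0581 without Axin2- mouse 1 or 3), and they summed over 35 genes to 44.5 to 50.6 CPM in the libraries labelled Axin2+, against 69.6 to 145 CPM in those labelled Axin2-. Myod1, Myog, Myh1, Myh2, Myh4 and Myh8, skeletal muscle genes of this list, were at 0 counts in all 6 libraries. They were named after their values were seen. The 6 called lower were Tnnt3, Tnnt1, Tnni2, Tnnt2, Actn3 and Acta1. All of these were detected in the libraries labelled Axin2-, so striated muscle transcripts were not absent there. The troponin gene Tnnt3 had 2.36, 1.72 and 1.32 CPM in the libraries labelled Axin2+, against 30.0, 17.1 and 25.7 CPM in those labelled Axin2- (-3.75 ± 0.32, edgeR adjusted p = 0.000493). Pericyte markers fell in 7 of 11 tested, with 0 higher, a median of -2.43, and sums of 67.6 to 165 CPM in the libraries labelled Axin2+, against 358 to 658 CPM in those labelled Axin2-. Of those 7, the adhesion molecule Mcam and the potassium channel genes Kcnj8 and Abcc9 differed by -2.89 ± 0.42, -2.70 ± 0.42 and -4.67 ± 0.74 on the log2 scale. Stromal fibroblast markers fell in 12 of 15 (7 without Axin2+ mouse 2), with a median of -2.07 and sums of 2946 to 4575 CPM in the libraries labelled Axin2+, against 10831 to 23505 CPM in those labelled Axin2-. Lum and Col5a1 differed by -2.07 ± 0.24 and -2.52 ± 0.37. Their part in the fall of the smooth muscle genes was not tested.

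Other lists were higher, beside 14.5% of all genes tested that were called higher. All 15 epithelial markers rose, with a median of 3.46, among them Msx1 (4.27 ± 0.22), Spint2 (2.69 ± 0.15), Krt19 (3.21 ± 0.21) and Cdh1 (3.82 ± 0.30). All 10 macrophage markers rose (6 with mouse as a block, 5 without Axin2+ mouse 2, and 1, 6 and 4 without Axin2- mouse 1, 2 or 3), with a median of 3.50 and sums of 729 to 4035 CPM in the libraries labelled Axin2+, against 53.3 to 324 CPM in those labelled Axin2-. Endothelial markers rose in 7 of 10 (4 with mouse as a block, 3 without Axin2+ mouse 2 and 4 without Axin2- mouse 3), with a median of 1.68 and sums of 252 to 449.9 CPM in the libraries labelled Axin2+, against 196 to 240.4 CPM in those labelled Axin2-. Of the 3 that did not pass, 1 was lower in every library labelled Axin2+ than in any labelled Axin2-, where 23.2% of all genes lay apart in that direction. Of 5 basal and myoepithelial markers, which bear on contractile epithelial cells, Krt15 rose (20%, near the 14.5% of all genes) and 4 did not pass. These markers summed to 10.6 to 39.1 CPM in the libraries labelled Axin2+, against 6.03 to 10.1 CPM in those labelled Axin2-. Schwann and neural markers had 1 of 6 lower, Uchl1 (16.7%, near the 12.8% of all genes). Of 4 markers of Cajal-like interstitial cells, Cd34 and Ano1 were lower and Kit was higher. The edgeR adjusted p reached 0.110 for Krt15 when Axin2+ mouse 2 or a library labelled Axin2- was left out, 0.0799 for Uchl1 and 0.103 for Ano1 when any library other than Axin2- mouse 1 (Uchl1) or Axin2+ mouse 3 (Ano1) was left out, and 0.0798 for Kit without Axin2+ mouse 2; Krt15 was lost with mouse as a block too.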

How the data were processed

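The values used are raw counts of reads per gene, deposited by the authors for all 6 libraries. Per the submitters' processing notes, the build was mm10 and the tools were edgeR 3.22.5, StringTie 1.3.3, featureCounts 1.5.3 (Subread), STAR 2.5.3a and bcl2fastq 2.20.0.422. Which annotation was counted, and with which strand setting, is not given in the sources used here. Libraries were made from total RNA with Ribo-Zero Gold depletion, per the labels' protocols.

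The members, lists and tests were chosen with earlier results of these data known. Counts were fitted in R 4.3.3 with edgeR 4.0.16 (filterByExpr, TMM factors, robust quasi-likelihood F test between fractions), with p-values adjusted by Benjamini-Hochberg over 16896 genes and a threshold of 0.05. SE values were derived from the log2 fold change and its F statistic. The alternatives were DESeq2 1.42.0, mouse as a block, other scalings and filters, ribosomal RNA genes left out, and leaving out each library. No pair of libraries within a fraction agreed within sampling noise (lowest chi-square per degree of freedom 59.7).

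The labels number both fractions by mouse, and the numbers were taken to pair the libraries, although the labels also speak of pooling. The deviations of same-mouse libraries from their fraction means had correlations across genes of 0.31, 0.03 and -0.11 for mice 1, 2 and 3, and between mice they ran from -0.29 to 0.31, so the values themselves do not show the pairing; genes are not independent replicates. The named genes are all members, Axin2 and, from each other list, up to 4 tested genes with the smallest p among those that passed, or the 2 with the highest mean CPM where none passed.

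Coordinates and exon lengths come from GENCODE M21 on GRCm38, the assembly that mm10 names, and start-site windows from RefSeq on GRCm38.p6. Exon lengths join all annotated exons, so levels per kb are approximate. A floor of 3 counts per library was used where a fraction was at 0; it reflects counting error alone, because PCR copies cannot be told apart without molecular identifiers.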

Additional observations from a re-analysis of the deposited data

How the results depend on the processing

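No member changed direction in 542 values under 16 alternatives, and 510 kept their side of the threshold; 32 values of Myh10, Tpm1, Pgm5, Actn1, Vcl and Casq2 missed it, as given beside each gene. With mouse as a replicate block, 29 members were lower and 1 higher, where 11.1% of all genes were called lower and 12.3% higher. The median log2 fold change of the members was -2.56. In that fit Myh10, Tpm1 and Casq2 were lost, and the pairing changed no other member's call. Leaving out each library in turn gave 27 to 31 members lower, 0 to 1 higher and a median of -2.84 to -2.30. Over all genes it gave 1053 to 1911 lower and 1491 to 2304 higher; the counts moved over 1.5-fold without Axin2+ mouse 2 (1053 lower, 1491 higher), without Axin2- mouse 1 (1272 lower) and without Axin2- mouse 3 (1308 lower). For the other lists it gave 3 to 7 SRF and myocardin regulators lower and 1 higher, 9 to 17 contraction and calcium genes lower and 0 higher, 7 to 11 adhesion and dystrophin genes lower and 3 to 4 higher, and 2 to 6 cytoskeletal paralogs lower and 6 to 9 higher. DESeq2 called 1 contraction and calcium gene higher, and scaling by total counts left 2 cytoskeletal paralogs lower. Axin2 ranged from -0.82 to -0.41 when a library was left out, and passed with DESeq2 (-0.62, adjusted p = 0.0337) and without Axin2+ mouse 3 (adjusted p = 0.0290). The member share of counts was 0.361% to 0.390% in the libraries labelled Axin2+ and 1.05% to 1.48% in those labelled Axin2- when a library was left out, and 0.447% in the libraries labelled Axin2+ and 1.55% in those labelled Axin2- with ribosomal RNA genes left out, against 0.375% and 1.26% with them. The cause of these shifts was not tested. Depth limits Casq2, Ckm and Ldb3, whose counts are lowest.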
